A study of Homo sapiens with 24 samples.

Results

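Chemokines are small secreted proteins that attract leukocytes, and 8 of them were followed here by RNA sequencing in 24 cultures of the gastric adenocarcinoma line AGS. The members were the rows of the gene count table with the symbols IL8 (now CXCL8), CXCL1, CXCL2, CXCL3, CXCL5, CXCL16, CCL20 and CX3CL1, which makes 8 of 23368 genes. The cells were wild type throughout and were harvested at 24 h. One group was a control with no inhibitor, for which the labels name no vehicle. As single agents, 0.7 µM PI103 was given to block PI3 kinase and mTOR, 0.035 µM PD0325901 to block MEK, and 0.5 µM (5Z)-7-oxozeaenol (oxozeaenol below) to block TAK1. The PI103/oxozeaenol combination held 0.35 µM PI103 and 0.25 µM oxozeaenol, and the PI103/PD0325901 combination held 0.35 µM PI103 and 0.0175 µM PD0325901. Each of the 6 groups had 4 biological replicates. All cells were 1 line in culture, with no leukocytes to respond to a chemokine, and RNA was measured, not secreted protein.

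IL8, CXCL1, CXCL2, CXCL3 and CXCL5 belong to the CXC chemokines that attract neutrophils through the receptor CXCR2, which IL8 shares with CXCR1. Epithelial cells switch these genes on through the transcription factors NF-kB and AP-1, which lie below the kinases TAK1, MEK and ERK, and in the stomach IL8 is the classical epithelial signal of infection with Helicobacter pylori. CCL20 attracts cells bearing CCR6. CXCL16 and CX3CL1 differ from the others in being made as membrane proteins, which the proteases ADAM10 and ADAM17 cut to release the soluble chemokine, and their receptors are CXCR6 and CX3CR1.

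Of the 8 genes, 5 lie together on chromosome 4 (GRCh38, GENCODE 29): IL8 at chr4:73740506-73743716, CXCL1 at chr4:73869393-73871242, CXCL5 at chr4:73995642-73998779, CXCL3 at chr4:74036589-74038807 and CXCL2 at chr4:74097035-74099293. IL8 and CXCL1 are on the plus strand and CXCL5, CXCL3 and CXCL2 on the minus strand, and RefSeq places the stretch from IL8 to CXCL2 within 358627 bases. CXCL16 is at chr17:4733526-4739922 on the minus strand, CCL20 at chr2:227805739-227817564 and CX3CL1 at chr16:57372458-57385048, both on the plus strand. All 8 are protein-coding genes. Of the other chemokine genes within the chromosome 4 stretch, CXCL6, PF4V1 and PF4 had 0 counts in all 24 libraries and PPBP had 30 counts in 12 libraries.

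The promoters are shown because the 5 clustered genes hold the same NF-kB motif, while IL8 fell much further than CXCL1, CXCL2 and CXCL3, and CXCL5 was too low to test. The set of RefSeq promoters used (GRCh38.p14) held 6 of the 8 genes and had no entry for CXCL16 and CX3CL1. Each line gives the 140 bases before the start, 5′ to 3′ on the gene's strand, with matches to GGANTTTCC (an NF-kB motif) and TGANTCA (an AP-1 motif, whose complement reads the same) in capitals.
IL8 (chr4:73740429-73740568, plus strand): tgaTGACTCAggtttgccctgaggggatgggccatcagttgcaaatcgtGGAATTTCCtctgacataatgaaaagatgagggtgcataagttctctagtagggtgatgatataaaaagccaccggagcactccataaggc
CXCL1 (chr4:73869253-73869392, plus strand): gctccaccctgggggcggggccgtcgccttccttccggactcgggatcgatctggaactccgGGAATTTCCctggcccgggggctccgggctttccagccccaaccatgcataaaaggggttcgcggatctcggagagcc
CXCL2 (chr4:74099196-74099335, minus strand): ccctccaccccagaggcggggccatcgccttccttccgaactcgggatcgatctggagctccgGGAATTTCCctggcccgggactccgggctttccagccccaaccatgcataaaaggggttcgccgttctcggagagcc
CXCL3 (chr4:74038690-74038829, minus strand): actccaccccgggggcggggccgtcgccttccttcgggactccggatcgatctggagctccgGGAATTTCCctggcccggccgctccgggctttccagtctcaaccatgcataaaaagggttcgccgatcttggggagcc
CXCL5 (chr4:73998678-73998817, minus strand): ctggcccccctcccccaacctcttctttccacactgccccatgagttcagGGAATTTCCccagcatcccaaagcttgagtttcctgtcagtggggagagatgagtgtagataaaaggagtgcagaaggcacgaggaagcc

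Searched on both strands over 250 bases before the start, the same site, GGAATTTCC, was found in all 5 promoters, with its first base at -91 in IL8, -78 in CXCL1, -77 in CXCL2, -78 in CXCL3 and -90 in CXCL5. The motif was present in 510 of 35116 RefSeq promoters of that length (1.45%). The AP-1 motif was found in IL8 alone of the 6, at -137 to -131, and in 2308 of the 35116 (6.57%). The motifs did not overlap each other. Neither string was found in the window of CCL20. Other forms of the NF-kB and AP-1 motifs were not searched, so this does not show that CCL20 lacks such sites. Aligned over 250 bases, the promoter of CXCL1 was 81.4% identical to that of CXCL3 and 71.9% to that of CXCL2, against 44.7% to that of IL8. A match describes the letters and is not a measurement of binding.

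**Figure D1:**
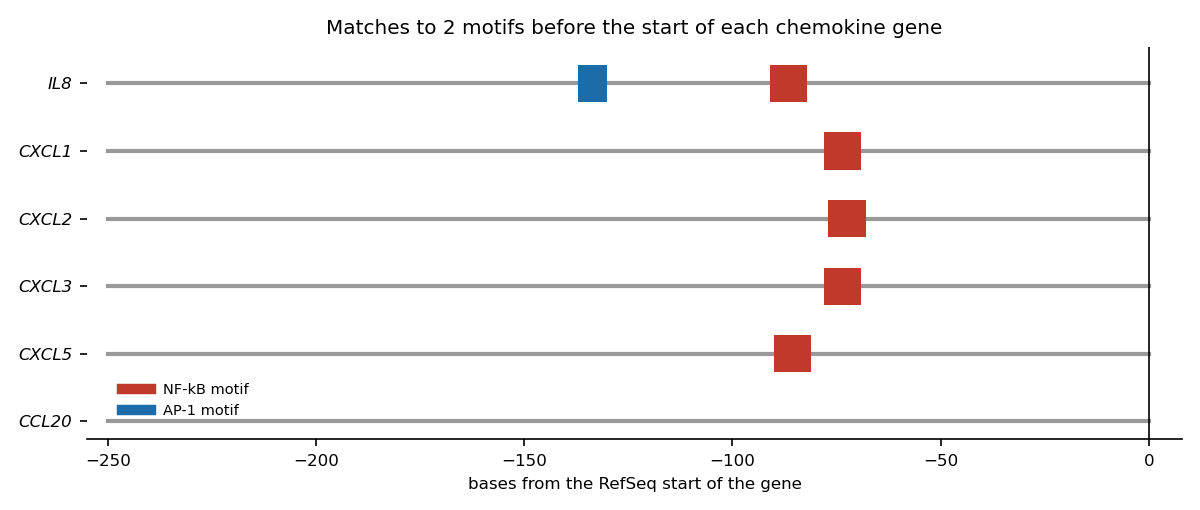
Positions of matches to the NF-kB motif (red) and the AP-1 motif (blue) in the 250 bases before the RefSeq start of 6 chemokine genes; the x axis is the distance from the start in bases. The NF-kB match lies between -91 and -69 in 5 genes, the AP-1 match is in IL8 alone, and CCL20 has neither match. Other forms of the motifs were not searched.

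Libraries held between 38057638 and 84226380 counts in genes. Levels are given as counts-per-million (CPM) of the scaled library size, and changes as log2 fold changes from the quasi-likelihood test of edgeR, with p-values adjusted by Benjamini-Hochberg over the 13947 genes tested. A gene is said to rise or fall where the adjusted p is under 0.05. The filter on low counts was passed by 6 of the 8 chemokines and not by CXCL5 and CCL20. CX3CL1 passed only because the 4 PI103/PD0325901 libraries, where it was highest, and 1 oxozeaenol library reached the minimum of 0.170 CPM, so its calls add no support to a count. The summed level of 6 epithelial markers was 4624 to 7533 CPM per library. Of 9 leukocyte markers, MS4A1 and FCGR3A were at 0 in every library, and PTPRC, present on all leukocytes, had at most 7 counts in a library. The summed level of the 9 was 40.1 to 50.5 CPM in control and 189 to 471 CPM in treated libraries, nearly all of it LYZ (44.9 ± 4.99 CPM in control and 390 ± 60.1 with PD0325901, SD, n = 4). LYZ encodes lysozyme, which stomach gland cells also make. The 3 leukocyte markers tested all rose with PD0325901, where 28.7% of all genes were higher. CSF1R went from 1.28 to 3.20 CPM on average (1.32, adjusted p 2.79e-05) and CD68 from 0.826 to 2.33 CPM (1.49, adjusted p 8.52e-05). All 3 also rose with PI103/PD0325901 (32.2% of all genes were higher), and CSF1R fell with PI103 (-1.28, adjusted p 0.000179). Summed, 7 fibroblast markers were at 61.1 to 83.4 CPM in control and 37.6 to 112 CPM in treated libraries. The sum of 4 endothelial markers was at most 0.452 CPM. The part of these markers in the results was not tested. As these are bulk cultures, fewer cells making a chemokine and less of its RNA per cell cannot be told apart.

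In untreated cells CXCL16 had the highest level per length of transcript, followed by CXCL3 and IL8. Divided by the longest coding transcript, control levels were 29.9 ± 3.12 CPM per kb for CXCL16, 9.61 ± 3.54 for CXCL3, 5.97 ± 2.88 for IL8, 3.43 ± 0.661 for CXCL2 and 2.71 ± 0.479 for CXCL1 (SD, n = 4). The ranges of CXCL3 (5.05 to 12.9) and IL8 (2.92 to 8.64) overlapped, as did those of CXCL2 (2.45 to 3.87) and CXCL1 (2.30 to 3.36), though the first of each pair was higher in 4 of 4 control libraries. Divided by the union of exons, CXCL3 was at 4.65 ± 1.71 and IL8 at 4.48 ± 2.16 CPM per kb (SD, n = 4), with CXCL3 higher in 2 of 4 libraries, so the order of these 2 genes depends on the length used. With any inhibitor IL8 dropped to between 0.0686 (oxozeaenol) and 0.179 (PI103/PD0325901) CPM per kb on average, below CXCL1, whose lowest group average was 0.821. CXCL16 made up 62.8% to 82.8% of the reads of the 8 genes in the control libraries and 90.0% to 95.4% in the treated ones, a share that is not corrected for length. The share of IL8 was 5.36% to 15.0% in control and at most 0.384% in any treated library.

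IL8, a potent neutrophil attractant, fell in all 5 treatments, to between 2 and 28 reads per library. Control libraries 1 to 4 held 307, 751, 577 and 1123 IL8 reads, which is 4.97, 14.0, 7.05 and 14.7 CPM. PI103 libraries held 21, 12, 18 and 23 reads (0.323, 0.208, 0.309 and 0.372 CPM), and PD0325901 libraries held 11, 20, 15 and 14 (0.206, 0.343, 0.215 and 0.217 CPM). Every treated library lay below every control library, which held for 22.0% to 28.9% of all tested genes, depending on the treatment. IL8 in the control libraries themselves spread from 4.97 to 14.7 CPM. With oxozeaenol the 4 libraries held 4, 12, 7 and 2 reads, at 0.0696, 0.164, 0.199 and 0.0353 CPM. With PI103/oxozeaenol they held 4, 7, 8 and 11 reads, at 0.0516, 0.117, 0.142 and 0.208 CPM. With PI103/PD0325901 they held 13, 19, 12 and 28 reads, at 0.163, 0.319, 0.174 and 0.566 CPM. The 2 groups with oxozeaenol were thus counted from at most 12 IL8 reads in any library.

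The log2 fold change of IL8 was -5.06 (95% interval -5.87 to -4.25) with PI103, -5.37 (-6.20 to -4.54) with PD0325901 and -6.47 (-7.40 to -5.54) with oxozeaenol. It was -6.34 (-7.24 to -5.43) with PI103/oxozeaenol and -5.12 (-5.94 to -4.31) with PI103/PD0325901. Adjusted p-values lay between 2.09e-11 and 1.59e-10. As fitted folds, IL8 was 33.3-fold lower with PI103 and 88.8-fold lower with oxozeaenol. Paired by batch number, the control-to-treated ratio ranged from 15.4 to 67.2 with PI103 and from 35.5 to 418 with oxozeaenol, the last against a library with 2 reads. Ordered by log2 fold change among the 13947 genes, IL8 was at rank 3 from the lowest with oxozeaenol, 13 with PI103/oxozeaenol, 21 with PD0325901, 24 with PI103 and 40 with PI103/PD0325901. No alternative in which IL8 was tested, each library left out included, ended any of these 5 calls.

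Among treated groups, IL8 levels ordered as PI103/PD0325901 (0.305 ± 0.188 CPM), PI103 (0.303 ± 0.0686), PD0325901 (0.245 ± 0.0655), PI103/oxozeaenol (0.130 ± 0.0648) and oxozeaenol (0.117 ± 0.0771; SD, n = 4 each). IL8 was higher with PI103 than with oxozeaenol by 1.42 (SE 0.542, adjusted p 0.0373). That call was lost without PI103 replicate 1, 3 or 4 or oxozeaenol replicate 1 or 4, with values of 1.11 to 1.40 and adjusted p-values of 0.0639 to 0.125, and in the fit with no filter on low counts (1.43, adjusted p 0.0537). PI103/oxozeaenol minus PI103 was -1.28 (adjusted p 0.0898), and with the replicate block -1.31 (adjusted p 0.0271). PI103/PD0325901 minus PI103/oxozeaenol was 1.21 (adjusted p 0.0824), and with the block 1.20 (adjusted p 0.0311). PD0325901 and PI103/oxozeaenol, next to each other in the order, were not compared. The other neighbours did not pass the test. The 95% interval was -1.16 to 1.43 for PI103/oxozeaenol minus oxozeaenol and -0.72 to 1.20 for PI103/PD0325901 minus PD0325901.

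**Figure D2:**
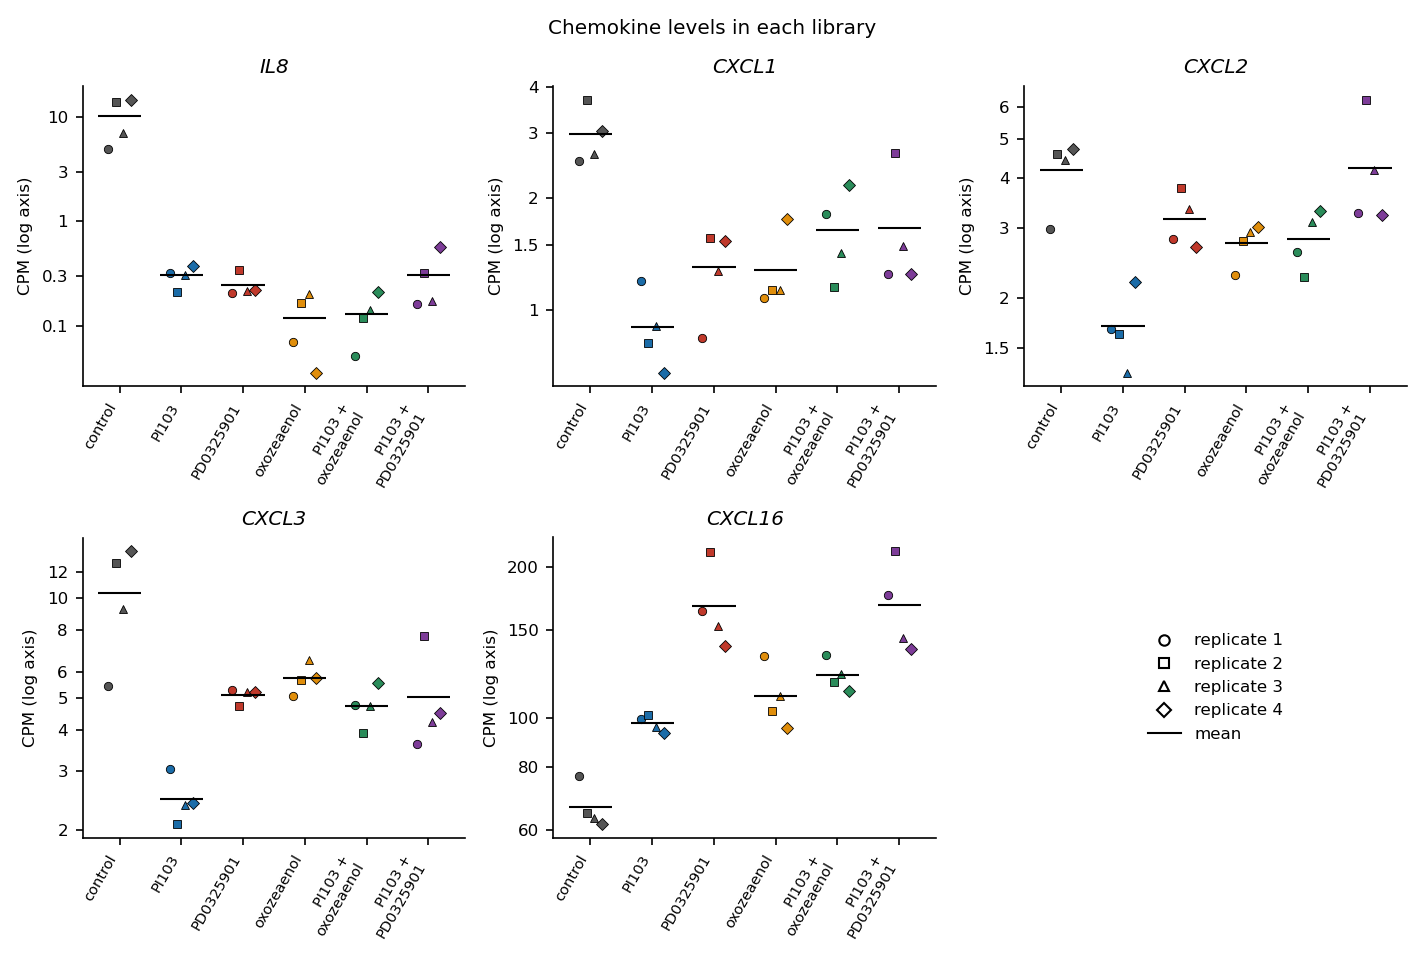
Level in CPM (log axis) of 5 chemokines in each of the 24 libraries, by group; symbols mark the replicate number and bars the group mean of 4. IL8 lies between 0.0353 and 0.566 CPM in treated libraries against 4.97 to 14.7 in control, PI103 has the lowest means of CXCL1, CXCL2 and CXCL3, and every treated library is above control for CXCL16.

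CXCL1, CXCL2 and CXCL3, the GRO chemokines, fell far less than IL8, and their lowest group means were with PI103. These genes have similar sequences: 4.81% of the 50-base windows of CXCL1, 12.5% of CXCL2 and 6.01% of CXCL3 occur in another gene's transcripts, so a small part of their reads is uncertain, whereas no IL8 window was shared. CXCL3, the most abundant of them, was at 5.43, 12.8, 9.28 and 13.8 CPM in control replicates 1 to 4 and at 3.04, 2.08, 2.38 and 2.41 CPM with PI103. It was at 5.29, 4.74, 5.20 and 5.23 CPM with PD0325901 and at 5.06, 5.67, 6.50 and 5.75 CPM with oxozeaenol. With PI103/oxozeaenol it was at 4.74, 3.91, 4.71 and 5.53 CPM, and with PI103/PD0325901 at 3.64, 7.69, 4.22 and 4.51 CPM. The PI103 libraries were the lowest of all, the PD0325901 libraries lay just under control replicate 1, and the other 3 treatments overlapped that control library. On the log2 scale CXCL3 fell with PI103 by 2.06 (SE 0.230, adjusted p 6.05e-08), with PD0325901 by 1.01 (SE 0.219, adjusted p 0.000312) and with oxozeaenol by 0.85 (SE 0.219, adjusted p 0.00221). It fell by 1.13 (SE 0.220, adjusted p 0.000115) with PI103/oxozeaenol and by 1.05 (SE 0.219, adjusted p 0.000189) with PI103/PD0325901.

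CXCL1 was at 2.53, 3.69, 2.64 and 3.04 CPM in control (156 to 232 reads) and at 1.20, 0.815, 0.909 and 0.678 CPM with PI103. It was at 0.844, 1.56, 1.28 and 1.54 CPM with PD0325901 and at 1.08, 1.14, 1.14 and 1.76 CPM with oxozeaenol. In the combinations it was at 1.82, 1.15, 1.42 and 2.18 CPM with PI103/oxozeaenol and at 1.25, 2.65, 1.49 and 1.25 CPM with PI103/PD0325901. All treated libraries were below all controls except replicate 2 of PI103/PD0325901, where 22.0% to 28.9% of all genes lay wholly below control in a treatment. The fall of CXCL1 was largest with PI103 (-1.72, SE 0.263, adjusted p 5.58e-06). CXCL1 fell by 1.18 and 1.21 with PD0325901 and oxozeaenol, and neither agent differed from PI103 by the test (adjusted p 0.109 and 0.134). In the combinations it fell by 0.85 (adjusted p 0.00549) and 0.84 (adjusted p 0.00496).

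CXCL2 was the member whose fall did not extend to every treatment. It was at 2.98, 4.58, 4.42 and 4.71 CPM in control, 1.68, 1.63, 1.30 and 2.20 CPM with PI103, and 2.28, 2.78, 2.92 and 3.02 CPM with oxozeaenol. PD0325901 libraries were at 2.81, 3.76, 3.34 and 2.68 CPM. The combinations were at 2.60, 2.25, 3.10 and 3.29 CPM (PI103/oxozeaenol) and 3.27, 6.27, 4.18 and 3.23 CPM (PI103/PD0325901). Only the PI103 libraries lay below all controls, as they did for 24.0% of all genes. CXCL2 fell with PI103 by 1.29 (SE 0.207, adjusted p 1.03e-05), with oxozeaenol by 0.60 (SE 0.202, adjusted p 0.0143) and with PI103/oxozeaenol by 0.57 (SE 0.201, adjusted p 0.0176). The last call was lost without replicate 2 of the combination (-0.48, adjusted p 0.0641) or control replicate 4 (-0.51, adjusted p 0.0525). With PD0325901 the change was -0.41 (95% interval -0.82 to 0.00, adjusted p 0.0829), and -0.54 (adjusted p 0.0274) without control replicate 1. With PI103/PD0325901 it was 0.02 (95% interval -0.39 to 0.43, adjusted p 0.935).

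CXCL16, the membrane-bound ligand of CXCR6 that also acts as a scavenger receptor, rose in all 5 treatments. It was at 76.8, 64.7, 63.2 and 61.5 CPM in control and at 99.5, 102, 96.1 and 93.4 CPM with PI103. PD0325901 libraries were at 164, 214, 153 and 139 CPM and oxozeaenol libraries at 133, 103, 111 and 95.6 CPM. With PI103/oxozeaenol the values were 133, 118, 122 and 113 CPM, and with PI103/PD0325901 they were 176, 215, 145 and 138 CPM. No treated library overlapped control, and both groups with PD0325901 lay above the other groups. Of all tested genes, 20.2% to 28.1% lay wholly above control, depending on the treatment. CXCL16 rose by 0.55 (SE 0.130, adjusted p 0.000874) with PI103, 0.73 (SE 0.130, adjusted p 4.1e-05) with oxozeaenol and 0.87 (SE 0.130, adjusted p 3.24e-06) with PI103/oxozeaenol. It rose by 1.33 (SE 0.131, adjusted p 3.71e-09) with PD0325901 and 1.34 (SE 0.131, adjusted p 2.09e-09) with PI103/PD0325901, which is 2.52-fold and 2.53-fold. Of its exon length, 3.04% lies opposite the gene MED11. CXCL16 had at least 3471 reads in every library.

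**Figure D3:**
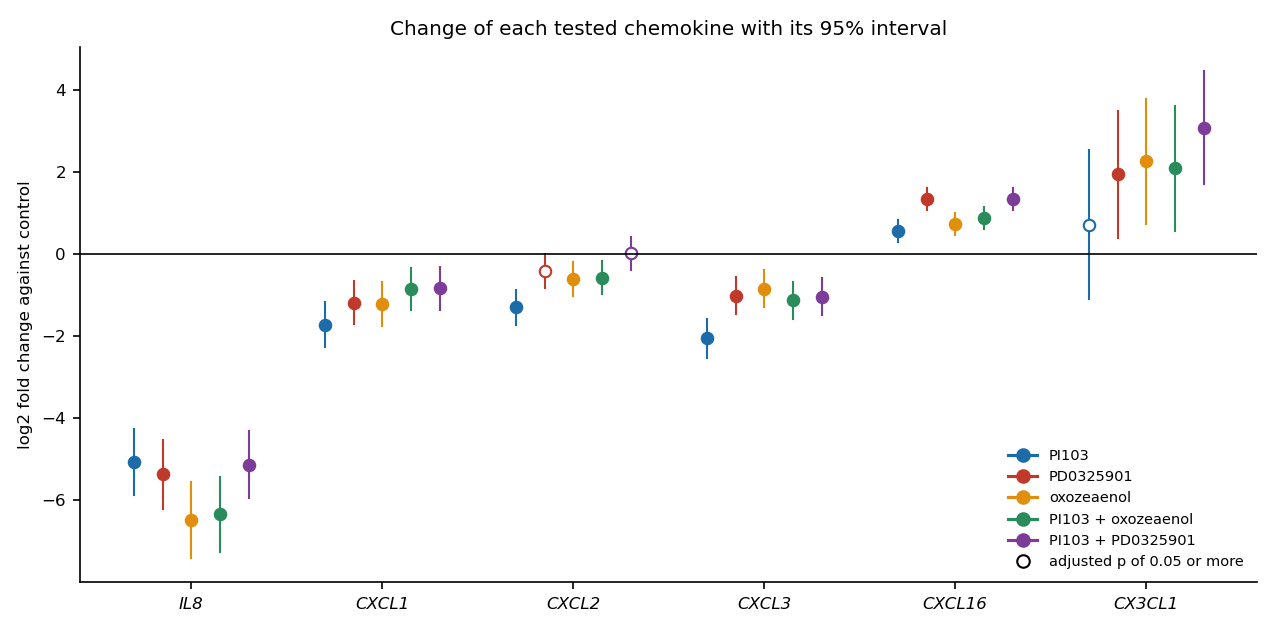
Log2 fold change against control (y axis) of the 6 tested chemokines in 5 treatments, with 95% intervals; filled points passed an adjusted p of 0.05 and open points did not. IL8 lies between -6.47 and -5.06, CXCL1 and CXCL3 are below 0 in all treatments, CXCL2 is near 0 with PI103/PD0325901, CXCL16 is above 0 throughout, and CX3CL1 has wide intervals.

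Against control, the background of called genes was high. Counts here leave out CX3CL1. With PI103, 4 of the 5 other tested members fell (25.2% of all genes were lower) and 1 rose (26.2% were higher), out of 51.4% called. With PD0325901, 3 fell (29.9%) and 1 rose (28.7%), out of 58.6% called. With oxozeaenol, 4 fell (26.1%) and 1 rose (25.7%), out of 51.9% called. With PI103/oxozeaenol, 4 fell (27.9%) and 1 rose (27.7%), out of 55.6% called. With PI103/PD0325901, 3 fell (32.6%) and 1 rose (32.2%), out of 64.8% called. The medians of the 5 were -1.72, -1.01, -0.85, -0.85 and -0.84 in that order, while the medians of all genes were between -0.02 and 0.02. IL8, CXCL1 and CXCL3 were lower in all 5 treatments, as were 13.5% of the genes tested, and CXCL16 was higher in all 5, as were 11.5%. The 5 comparisons share the same control libraries and are not independent of each other.

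CXCL5, CCL20 and CX3CL1 were near the limit of detection, where 3 reads summed over the control group correspond to 0.0110 CPM. CX3CL1, also called fractalkine, had 0, 0, 1 and 5 reads in control, 6, 2, 1 and 0 with PI103, and 3, 6, 7 and 6 with PD0325901. It had 3, 13, 5 and 4 reads with oxozeaenol, 6, 2, 9 and 7 with PI103/oxozeaenol, and 17, 12, 12 and 10 with PI103/PD0325901. The PI103/PD0325901 libraries (0.174 to 0.213 CPM) were above all controls (at most 0.0656 CPM), as they were for 28.1% of all genes. The other groups overlapped control. CX3CL1 rose by 3.07 (95% interval 1.70 to 4.45, adjusted p 0.000256) with PI103/PD0325901, a call kept in each fit without 1 library, at 2.73 to 4.82. CX3CL1 met the filter mainly through the libraries of that combination. The interval, p-value and kept call are thus no independent support for its rise there. It also passed with PD0325901 (1.94, adjusted p 0.0292), oxozeaenol (2.26, adjusted p 0.0125) and PI103/oxozeaenol (2.09, adjusted p 0.0193), but not with PI103 (0.72, adjusted p 0.517). Without control replicate 4, which held 5 of the 6 control reads, the rises were 4.82 with PI103/PD0325901, 3.69 with PD0325901, 4.00 with oxozeaenol and 3.83 with PI103/oxozeaenol, so the size of the change rests on that library. The PD0325901 call was lost without control replicate 1, 2 or 3 or PD0325901 replicate 2 or 3 (1.60 to 1.90, adjusted p up to 0.0781). The oxozeaenol call was lost without its replicate 2 (1.83, adjusted p 0.0743). The PI103/oxozeaenol call was lost without control replicate 1, 2 or 3 or its own replicate 3 (1.74 to 1.87, adjusted p up to 0.0690).

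CCL20, the ligand of CCR6, had 0, 3, 1 and 6 reads in control and 0, 2, 1 and 0 with PD0325901, and no read in the 16 libraries of the other 4 treatments. Taking 3 reads over a group as the limit and the 10 control reads as exact, CCL20 was at least 2.96-fold lower with PI103 and 2.71-fold with oxozeaenol. With PI103/oxozeaenol it was at least 3.00-fold lower, and with PI103/PD0325901 3.15-fold. As 1 control library held 6 of those 10 reads, these minimums may be too high. In the fit without the filter on low counts, adjusted p-values of these 4 comparisons were 0.0179 to 0.0305, and 0.311 with PD0325901. CXCL5 had 4, 1, 17 and 1 reads in control, so 1 control library held 17 of its 23 reads. The 5 treated groups had 6 to 12 CXCL5 reads each over 4 libraries. A difference from control was not detectable at this depth (adjusted p 0.122 to 0.548 in the unfiltered fit).

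**Figure D4:**
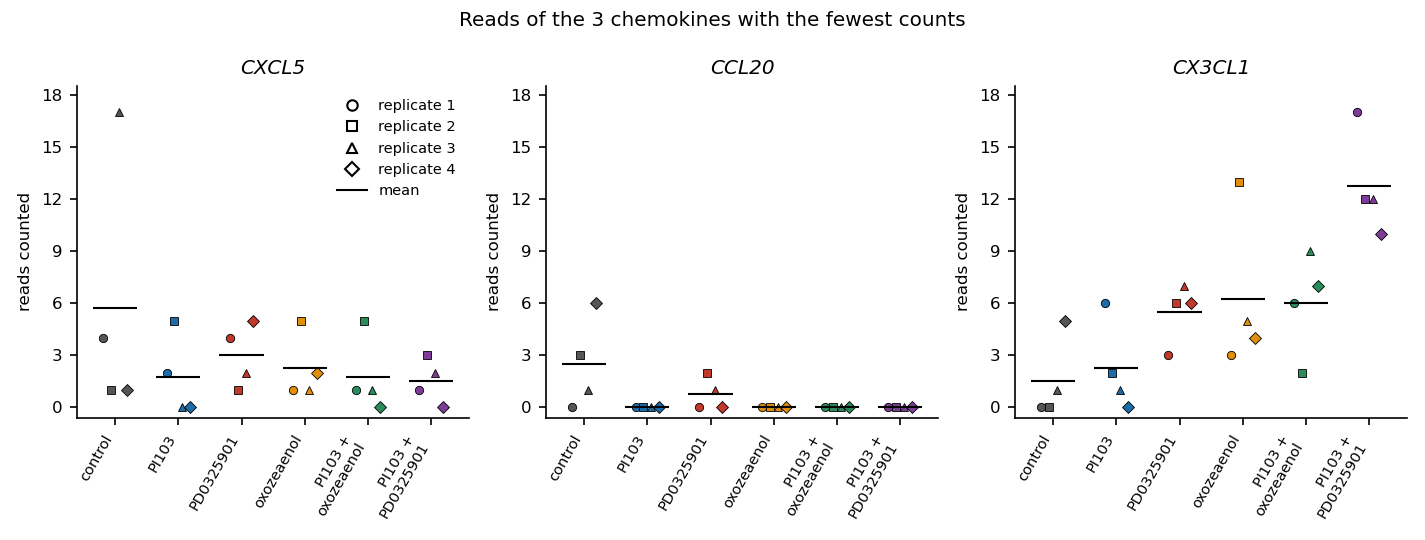
Reads counted (y axis, linear) for CXCL5, CCL20 and CX3CL1 in each library by group; symbols mark the replicate number and bars the mean of 4. One control library holds 17 CXCL5 reads, CCL20 is at 0 in 16 treated libraries of 4 groups, and CX3CL1 reaches 10 to 17 reads with PI103/PD0325901.

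The single agents were compared next, to ask whether the chemokines responded alike to PI103, PD0325901 and oxozeaenol, each at 1 concentration. CXCL2 and CXCL3 were lower with PI103 than with either other agent. PI103 minus PD0325901 gave 3 of 6 members (44.5% of all genes): CXCL2 at -0.89 (SE 0.208, adjusted p 0.0011), CXCL3 at -1.04 (SE 0.229, adjusted p 0.000604) and CXCL16 at -0.78 (SE 0.130, adjusted p 2.4e-05). PI103 minus oxozeaenol gave 3 members (43.1% of all genes): CXCL2 at -0.69 (adjusted p 0.0101), CXCL3 at -1.21 (adjusted p 0.000161) and IL8 at 1.42 as above. Between these 2 agents, IL8 lay in the opposite order to CXCL2 and CXCL3. Oxozeaenol minus PD0325901 gave 1 member (28.5% of all genes), CXCL16 at -0.60 (SE 0.130, adjusted p 0.00135). CXCL1 did not pass in any of these 3 comparisons, at -0.54 (adjusted p 0.109), -0.51 (adjusted p 0.134) and -0.03 (adjusted p 0.943), and the first passed at -0.72 (adjusted p 0.0353) without PD0325901 replicate 1.

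The combinations, in which each inhibitor was at 50% of its single concentration, lay closer to oxozeaenol and to PD0325901 than to PI103 for the GRO genes. No group held an inhibitor alone at 50%. In every comparison of a combination with its single agents or their mean, the lower dose and the second inhibitor cannot be told apart. PI103/oxozeaenol was above PI103 for CXCL1 (0.86, adjusted p 0.0238), CXCL2 (0.72, adjusted p 0.0163) and CXCL3 (0.93, adjusted p 0.00526), which is 3 of 6 members against 9.39% of all genes higher and 18.3% called. With the replicate block 5 members were called against 24.0% of all genes, adding CXCL16, which was higher (0.32, adjusted p 0.0877, and 0.0236 with the block), and IL8, which was lower. The CXCL1 call was lost without PI103 replicate 2, 3 or 4 or combination replicate 1 or 4 (0.71 to 0.87, adjusted p up to 0.0965). The CXCL2 call was lost without PI103 replicate 3 (0.62, adjusted p 0.0689) or combination replicate 4 (0.64, adjusted p 0.0584). Against oxozeaenol, 0 members passed edgeR's test, as against 14.9% of all genes. At an unadjusted p under 0.05 the count was also 0, and DESeq2 called 0.

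PI103/PD0325901 was above PI103 for 4 of the 5 members other than CX3CL1, against 18.8% of all genes higher and 38.7% called. The differences were 0.88 for CXCL1 (adjusted p 0.0104), 1.31 for CXCL2 (adjusted p 2.02e-05), 1.01 for CXCL3 (adjusted p 0.00111) and 0.79 for CXCL16 (adjusted p 3.68e-05). CX3CL1, which passed the filter through the libraries of this combination, was at 2.36 (adjusted p 0.00398). Replicate 2 of the combination was the highest of its group for CXCL1, CXCL2, CXCL3 and CXCL16, and without it the CXCL1 difference was 0.56 (adjusted p 0.0988). Against PD0325901, 0 members passed edgeR's test, as against 18.1% of all genes. CXCL2 and CX3CL1 (2 members) had an unadjusted p under 0.05 and DESeq2 called 0, while the difference for CXCL16 was 0.01 (adjusted p 0.972). The combinations differed from each other in 2 members (29.9% of all genes called, 14.3% higher): CXCL2 was higher by 0.59 (adjusted p 0.0273) and CXCL16 by 0.47 (adjusted p 0.00772) with PD0325901. Without PI103/PD0325901 replicate 2 neither passed (0.34, adjusted p 0.220, and 0.33, adjusted p 0.0652). The CXCL2 call was also lost without PI103/oxozeaenol replicate 1 (0.57, adjusted p 0.0645) or 2 (0.50, adjusted p 0.0981) and in a fit of these 2 groups alone (adjusted p 0.0579).

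Set against the mean of its single agents on the log2 scale, PI103/oxozeaenol departed in 0 members by edgeR's test (3.98% of all genes). CXCL1, CXCL2 and CXCL16 (3 members) had an unadjusted p under 0.05, and DESeq2 called 0. PI103/PD0325901 departed in 3 of the 5 members other than CX3CL1 (22.0% of all genes called, 10.8% higher), all higher: CXCL1 by 0.61 (adjusted p 0.0488), CXCL2 by 0.87 (adjusted p 0.000847) and CXCL16 by 0.40 (adjusted p 0.0116). CX3CL1, which passed the filter mainly through the libraries of this combination, was at 1.75 (adjusted p 0.0111). Without replicate 2 of the combination CXCL1 was at 0.29 (adjusted p 0.412) and CXCL16 at 0.26 (adjusted p 0.129). The CXCL1 call was also lost without PI103 replicate 2, 3 or 4, PD0325901 replicate 1 or 3 or combination replicate 3, with adjusted p-values of 0.0578 to 0.0860. It was lost as well with no filter on low counts (adjusted p 0.0531) and in a fit of the compared groups alone (adjusted p 0.0784). CXCL3 was at 0.49 (adjusted p 0.0668), and DESeq2 called it at 0.50 (adjusted p 0.042). CXCL2, at 0.62 to 0.97 in the 12 fits that left out 1 library, kept its call.

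Across the 24 libraries the 3 GRO genes varied together. The Pearson correlation of log2 CPM was 0.82 for CXCL1 with CXCL3, 0.80 for CXCL2 with CXCL3 and 0.74 for CXCL1 with CXCL2. These points share their libraries, groups and scaling, and part of the GRO sequence. Over the 20 treated libraries the 3 values were 0.68, 0.76 and 0.69. With the group means removed they were 0.59, 0.70 and 0.54. IL8 with CXCL3 was 0.60 over 24 libraries, -0.26 over the 20 treated ones and 0.55 with the group means removed, where IL8 was at 0.35 with CXCL2 and 0.07 with CXCL1. Among 11624 other genes of at least 1 CPM, those most like IL8 were ZNF697 (0.94), TSTD2 (0.94) and RIOK3 (0.94), and 431 genes exceeded 0.8. Those most like CXCL3 were MOSPD1 (0.90), TOM1L1 (0.90) and WDR73 (0.89), and those most like CXCL16 were MAN2B1 (0.97), PDIA5 (0.97) and CLDN6 (0.97). For CXCL1 they were ZNF641 (0.84), CXCL3 and LIF (0.81), and for CXCL2 ZFYVE28 (0.84), HIP1R (0.83) and CYP1A1 (0.82). For CX3CL1, at its few reads, they were LOC100507567 (0.85), LOC550643 (0.82) and TGM1 (0.81).

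Of 40 other chemokine ligands in the table, 8 were tested, and at least 4 of these were higher in each treatment except PI103 alone. With PI103, CCL5 was higher and CXCL9, a low-level ligand of CXCR3 named here after its values were seen, was lower (-1.59, adjusted p 0.00283). The number higher was 5 in PD0325901 cells (28.7% of all genes were higher), 6 in oxozeaenol cells (25.7%), 4 for PI103/oxozeaenol (27.7%) and 6 for PI103/PD0325901 (32.2%). A gene could meet the filter through only the groups where it was high, which favours such calls. The groups through which these 8 met it were not examined. The medians of the 8 were -0.41, 1.66, 1.62, 1.69 and 2.20 in the order PI103, PD0325901, oxozeaenol, PI103/oxozeaenol and PI103/PD0325901. CXCL10, a ligand of CXCR3 induced by interferon, was at 0.486, 0.484, 0.843 and 0.709 CPM in control and 0.507, 0.295, 0.771 and 0.485 CPM with PI103. It was at 4.95, 4.86, 4.98 and 6.34 CPM with PD0325901, and the lowest library of the 4 treatments other than PI103 alone was at 3.00 CPM. With PD0325901 the rise of CXCL10 was 3.04 (SE 0.209, adjusted p 6.56e-12). Oxozeaenol gave a rise of 2.34, PI103/oxozeaenol 2.80 and PI103/PD0325901 3.21, while the change with PI103 was -0.32 (adjusted p 0.273). CXCL11, which shares that receptor, rose by 1.88 to 3.15 in the same 4 treatments and was at 0.46 (adjusted p 0.195) with PI103. PI103 minus PD0325901 was -3.36 (adjusted p 6.1e-12) for CXCL10 and -1.42 (adjusted p 0.000146) for CXCL11. CCL5, an attractant of T cells and monocytes, rose in all 5, by 1.17 (SE 0.216, adjusted p 6.08e-05) with PI103 and by 2.85 (SE 0.210, adjusted p 3.08e-11) with PI103/oxozeaenol.

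**Figure D5:**
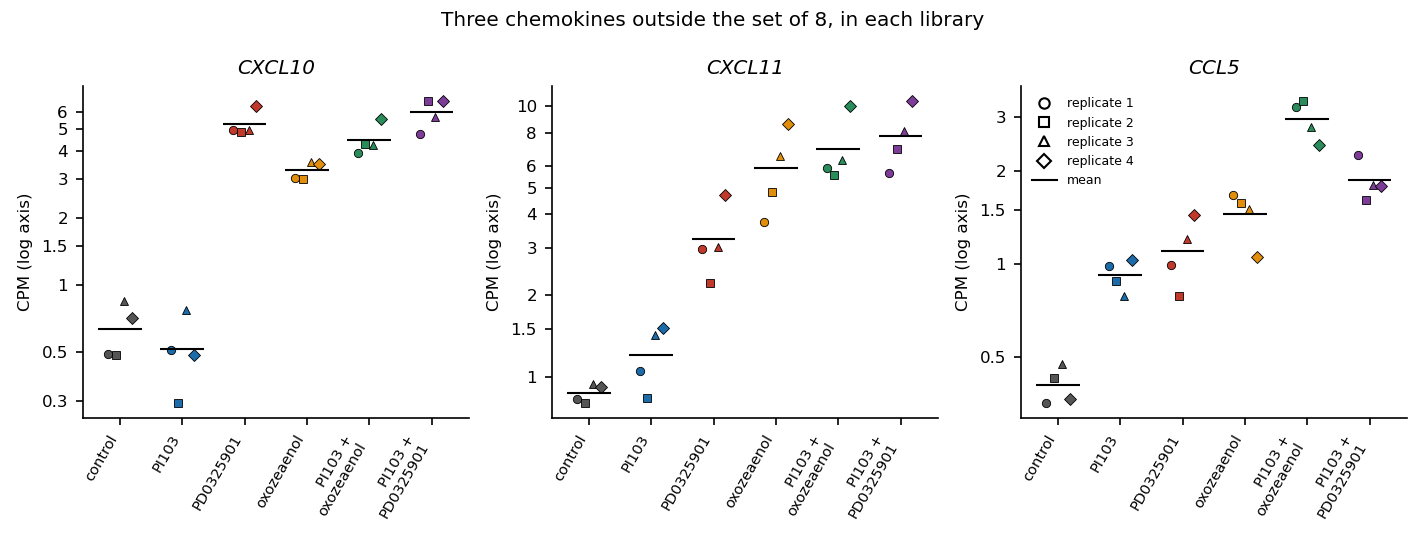
Level in CPM (log axis) of CXCL10, CXCL11 and CCL5 in each library by group; symbols mark the replicate number and bars the mean of 4. CXCL10 with PI103 alone overlaps control (0.295 to 0.771 against 0.484 to 0.843 CPM) and is at 3.00 to 6.69 CPM in the other treatments, while CCL5 is above control in every treatment.

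The receptors of the 8 chemokines were hardly detected. CXCR1 and CXCR6 had 0 counts in all 24 libraries and CX3CR1 had 4 in all. CXCR2 had 10 to 36 reads in control libraries and 2 to 12 in treated ones, and fell in all 5 treatments, by 1.08 (adjusted p 0.0186) with PD0325901 to 1.96 (adjusted p 0.00038) with PI103. CXCR2 may have met the filter on low counts mainly through the control libraries, which all 5 comparisons share. Its 5 falls therefore add no independent support. CCR6, at 2 to 22 reads per library, did not pass in any treatment. Of 23 receptors listed, 6 were tested. CCBP2, an atypical receptor that takes up CC chemokines, rose by 1.35 (adjusted p 1.56e-05) with PD0325901 and did not pass with PI103 (0.53, adjusted p 0.0604).

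Of the 2 proteases that release CXCL16 and CX3CL1, ADAM17 fell and ADAM10 rose where they passed. ADAM17 changed from 86.6 ± 3.65 CPM in control to 55.1 ± 3.96 CPM with PI103 (SD, n = 4), where it fell by 0.65 log2 units (SE 0.0839, adjusted p 4.33e-07). It also fell with oxozeaenol (-0.35), PI103/oxozeaenol (-0.46) and PI103/PD0325901 (-0.27), and was at -0.11 (adjusted p 0.264) with PD0325901. ADAM10 rose with PD0325901 (0.34, adjusted p 0.011), PI103/oxozeaenol (0.27, adjusted p 0.0485) and PI103/PD0325901 (0.54, adjusted p 0.000159).

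Genes of the transcription factors named above moved unequally, where over the 5 treatments 25.2% to 32.6% of all genes were lower and 25.7% to 32.2% higher. Of 7 FOS and JUN genes, the parts of AP-1, 6 were lower in each treatment and none was higher, and the medians were -0.81, -2.10, -2.25, -1.26 and -1.58 in the order PI103, PD0325901, oxozeaenol, PI103/oxozeaenol and PI103/PD0325901. FOSL1 changed from 55.4 ± 10.5 CPM in control to 3.24 ± 0.867 CPM with PD0325901 (SD, n = 4), a fall of 4.10 (SE 0.276, adjusted p 1.83e-11), and fell by 1.68 with PI103. FOS fell by 3.44 and JUNB by 2.10 with PD0325901. Of 17 NF-kB subunits, inhibitors and kinases, 6, 6, 9, 9 and 6 were lower and 3, 3, 0, 3 and 5 higher in the same order, with medians between -0.29 and -0.04. NFKB2, a subunit gene, fell in all 5, by 0.71 (PD0325901) to 1.28 (PI103/oxozeaenol), and NFKBIB, an inhibitor gene, by 0.76 to 1.24. NFKBIA, which encodes the inhibitor IkB alpha, rose by 0.34 with PI103 and 0.62 with PD0325901.

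Chemokine messages with AU-rich elements are short-lived because of proteins such as tristetraprolin (ZFP36). Of 7 regulators of this decay, 1, 4, 3, 3 and 4 were lower in that same order of treatments, and 1 was higher in each. ZFP36 fell by 0.50 with PI103 to 1.29 with oxozeaenol, ZFP36L2 rose by 0.91 with oxozeaenol to 1.81 with PI103/PD0325901, and ZFP36L1 fell in the 4 treatments other than PI103 alone (-0.19, adjusted p 0.152). Of 15 other cytokine genes 7 were tested, and 3, 4, 4, 4 and 4 were lower and 1, 1, 2, 2 and 1 higher, with medians of -0.02, -1.01, -0.45, -0.36 and -0.85. The shares of all genes in each direction are those given for the transcription factors. LIF, a cytokine of the interleukin 6 family, fell by 0.67 to 1.08. IL18, an inflammasome cytokine, changed from 372 ± 84.1 CPM in control to 119 ± 27.5 CPM with PD0325901 (SD, n = 4), a fall of 1.65 (adjusted p 6.42e-09), and TNFSF15 fell by 1.91 (adjusted p 1.09e-10) with PD0325901.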

How the data were processed

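The 8 chemokines and the gene lists were chosen with earlier results of these data known. Libraries were made from mRNA with a stranded kit, per the labels' protocols. The authors deposited whole-number read counts per gene symbol for 24 libraries. The build was GRCh38 per the submitters' processing notes, and the aligner, counter, annotation and use of strand are not given in the sources used here. Tallies with no gene name (no feature 4.24% to 8.57%, ambiguous 1.57% to 2.01%, not unique 4.64% to 6.06% of reads per library) were left out. Samples were grouped by their titles, which carry the replicate number that the labels call the batch.

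Genes were kept by filterByExpr with the groups given (13947 of 23368, 99.989% of counts), scaled by TMM and fitted in edgeR 4.0.16 (R 4.3.3) with 1 coefficient per group over all 24 libraries. Each of 15 contrasts used the two-sided quasi-likelihood F test with Benjamini-Hochberg adjustment, called at an adjusted p under 0.05. CPM were computed on TMM-scaled library sizes. Correlations used log2 CPM with a prior count of 2. The code was tested on simulated counts. Alternatives were size-factor scaling, DESeq2 1.42.0, no filter, a mean of at least 5 CPM, a replicate block, a fit of the compared groups alone, a minimum change of 1 and each library left out.

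Batch numbers pair the samples per the labels. Deviations from group means of same-numbered libraries had a mean correlation of 0.12 over 60 pairs (28 over 0.1), against -0.04 over 180 pairs of different numbers. As group means were removed, the second mean is nearly fixed by the first and is not an independent comparison. Named genes were all 8 chemokines, the receptors CXCR1, CXCR2, CXCR6, CCR6 and CX3CR1, ADAM10 and ADAM17, at most 3 genes per other list with the smallest adjusted p among those averaging 1 CPM or more, and the 3 genes most correlated with each member. Leukocyte and epithelial markers named beside them and genes inside the chromosome 4 stretch were chosen after their values were seen.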

Additional observations from a re-analysis of the deposited data

Results flagged for a closer look

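In 5 of 44 groups of 4 libraries 1 library stood apart from the other three by Dixon's criterion, where chance flags about 1 in 20 groups. IL8 with PD0325901 was at 0.343 CPM in replicate 2 (20 reads) and at 0.206 to 0.217 CPM in the others. CXCL3 in that same library was at 4.74 CPM, under the 5.20 to 5.29 CPM of the others. CXCL1 with oxozeaenol was at 1.76 CPM in replicate 4 against 1.08 to 1.14 CPM, and with PI103/PD0325901 at 2.65 CPM in replicate 2 against 1.25 to 1.49 CPM. CXCL2 in control was at 2.98 CPM in replicate 1 against 4.42 to 4.71 CPM.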

How the results depend on the processing

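Counts here include CX3CL1, which met the filter mainly through the PI103/PD0325901 libraries, so its calls add no support to them. With a minimum change of 1, it was among the 3 called for PI103/PD0325901, beside IL8 and CXCL16. Against the mean of the single agents of that combination, it was called in all 12 fits without 1 library. Requiring a change of at least 1 (log2) left 3, 2, 1, 1 and 3 chemokines called against control (PI103, PD0325901, oxozeaenol, PI103/oxozeaenol, PI103/PD0325901), against 3.36%, 7.87%, 4.59%, 5.29% and 11.0% of all genes, and 0 for every other comparison that had calls (0.208% to 4.70% of all genes). A mean of at least 5 CPM, which only CXCL3 and CXCL16 reached, left 2 in each treatment against control (56.3% to 68.7% of the genes so tested), 1 for PI103/oxozeaenol against PI103, 2 for PI103/PD0325901 against PI103, and 1 each for PI103 against oxozeaenol, the combinations against each other and PI103/PD0325901 against its mean (20.7% to 49.1%). The replicate block gave 5 called chemokines for PI103/oxozeaenol against PI103, as did a fit of only the compared groups (30.9% of all genes), which gave 1 between the combinations (31.7%). Beside the IL8 and CXCL16 calls it added, given with the results, the block changed no call of a chemokine. It turned the CXCL1 difference between the combinations to -0.00462, and dropping the filter turned CXCL2 with PI103/PD0325901 against control to -0.000974. Without 1 library the counts ranged from 1 to 3 for PI103/oxozeaenol against PI103, 0 to 3 between the combinations and 2 to 5 for PI103/PD0325901 against its mean. Differences that did not pass also changed sign without 1 library. Their ranges were -0.32 to 2.46 for CX3CL1 with PI103 and -0.23 to 0.13 for CXCL2 with PI103/PD0325901 against control. For PI103/oxozeaenol against oxozeaenol they were -0.48 to 0.25 (CX3CL1), -0.0549 to 0.12 (CXCL2) and -0.18 to 0.47 (IL8). For PI103/PD0325901 they were -0.51 to 0.16 (IL8) against PI103, -0.13 to 0.13 (CXCL16), -0.31 to 0.0948 (CXCL3) and -0.20 to 0.47 (IL8) against PD0325901, and -0.35 to 0.32 (IL8) against its mean. For oxozeaenol against PD0325901 they were -0.11 to 0.53 (CX3CL1) and -0.23 to 0.0566 (CXCL1), and between the combinations -0.30 to 0.17 (CXCL1) and -0.20 to 0.21 (CXCL3). The cause of these changes was not tested. Depth limits IL8 with oxozeaenol and all values of CXCL5, CCL20 and CX3CL1, which rest on at most 17 reads in a library.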
